A study of Homo sapiens with 4 samples.

Results

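Peaks with a summit within 5 kb of the transcription start of a protein-coding gene were described in the 2 deposited peak lists of a chromatin immunoprecipitation sequencing (ChIP-seq) study of human cells. The rule took the deposited summit of each peak on chromosomes 1 to 22, and it kept 173 of 5307 control peaks and 608 of 15993 TGF-β1 peaks, 781 of 21300 in all. The labels call the cells HSC and describe them as stem cells and progenitors. The groups were control cells and cells given 20 ng/mL of the growth factor TGF-β1 for 2 h, with 1 ChIP and 1 input library each. All 4 libraries carry the same treatment text, which also names GDF11 at 100 ng/mL, and the labels do not say whether any of these cells received it. All cells were grown in medium with bovine and human serum, per the labels. The sources used here do not name the antibody, so what a peak marks is not known. With 1 library per group no test between conditions was possible, and intervals below are 95% intervals that cover counting error only.

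Starts came from RefSeq tables of the same build. Strand was at hand for 15101 of 19126 protein-coding genes (79.0%), which gave 23107 starts, several for some genes. For the other 4025 genes, among them all 715 of chromosome 8, the nearer gene end was used, so some of those peaks lie at the end of a gene and not at its start. ChIP depth after removal of duplicates was 36280696 tags (control) and 45984282 tags (TGF-β1), a ratio of 1.27. Input depth was 66537905 and 46802425 tags, a ratio of 0.703. Of 37 genes chosen as cell type markers, 8 of them for stem and progenitor cells, the control list had 0 with a peak near the start and the TGF-β1 list 1, the adult β-globin gene HBB. Of all protein-coding genes 0.988% and 3.42% had one. GATA1 and ALAS2, among the markers, lie on chromosome X, which the rule left out. These peaks do not measure expression, so the label of the cells could not be checked with them.

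The transcription start lies in the promoter, where RNA polymerase II and the general transcription factors assemble. In most human genes this stretch is a CpG island, rich in GC and in CG dinucleotides, and in active genes it is open chromatin. Many transcription factors, coactivators and active histone marks give their densest ChIP-seq signal there. The SMAD proteins that carry the TGF-β signal bind short motifs in promoters and in distal enhancers, often beside factors of the cell's own lineage.

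In neither list did a summit fall in the promoter window of a gene with a known strand, from 250 bases before the start to 50 after it. The sequences that show what lay beside the closest summits are therefore the 250 bases before the start of the 3 genes with a known strand whose starts were nearest to a summit in each list. They are RefSeq sequences (GRCh38.p14), 5′ to 3′ on the gene's strand, in lower case with every CG dinucleotide in capitals. The control genes were SMCO1, APOBEC1, which encodes the cytidine deaminase that edits apolipoprotein B mRNA, and DEFB119, a β-defensin gene.
SMCO1, chr3:196515347-196515596, strand minus: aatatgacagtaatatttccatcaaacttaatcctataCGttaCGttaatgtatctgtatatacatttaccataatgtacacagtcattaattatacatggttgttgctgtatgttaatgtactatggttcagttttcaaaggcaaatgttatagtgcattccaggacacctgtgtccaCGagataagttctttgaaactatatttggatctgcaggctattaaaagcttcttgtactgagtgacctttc
APOBEC1, chr12:7665909-7666158, strand minus: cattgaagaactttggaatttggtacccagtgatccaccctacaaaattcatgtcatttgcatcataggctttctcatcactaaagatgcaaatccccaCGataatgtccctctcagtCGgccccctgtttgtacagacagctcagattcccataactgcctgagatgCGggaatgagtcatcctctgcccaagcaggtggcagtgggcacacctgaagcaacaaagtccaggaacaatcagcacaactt
DEFB119, chr20:31390650-31390899, strand minus: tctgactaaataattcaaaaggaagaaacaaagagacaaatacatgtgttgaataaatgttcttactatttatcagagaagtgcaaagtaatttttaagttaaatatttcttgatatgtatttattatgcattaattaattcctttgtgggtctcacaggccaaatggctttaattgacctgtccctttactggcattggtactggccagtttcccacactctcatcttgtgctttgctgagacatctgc

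The TGF-β1 genes were AHCYL1, ZNF723, a zinc finger gene, and SLC17A2, a solute carrier gene.
AHCYL1, chr1:110000677-110000926, strand plus: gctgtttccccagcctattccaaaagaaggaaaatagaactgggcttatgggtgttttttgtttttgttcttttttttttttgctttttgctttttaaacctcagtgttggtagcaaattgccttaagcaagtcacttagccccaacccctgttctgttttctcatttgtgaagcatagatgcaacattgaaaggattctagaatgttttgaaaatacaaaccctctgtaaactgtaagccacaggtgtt
ZNF723, chr19:22832041-22832290, strand plus: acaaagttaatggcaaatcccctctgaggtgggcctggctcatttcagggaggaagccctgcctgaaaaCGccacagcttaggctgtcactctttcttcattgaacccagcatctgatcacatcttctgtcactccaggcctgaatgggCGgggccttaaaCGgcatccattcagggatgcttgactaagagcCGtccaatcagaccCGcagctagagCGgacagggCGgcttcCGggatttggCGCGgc
SLC17A2, chr6:25925880-25926129, strand minus: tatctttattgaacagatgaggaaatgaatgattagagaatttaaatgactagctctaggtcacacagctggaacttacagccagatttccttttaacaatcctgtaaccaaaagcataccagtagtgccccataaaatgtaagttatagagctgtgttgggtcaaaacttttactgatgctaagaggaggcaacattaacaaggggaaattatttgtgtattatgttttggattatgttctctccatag

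All 6 stretches belonged to starts that were poor in CpG by the limits used below. DEFB119, AHCYL1 and SLC17A2 held 0 CG dinucleotides in 250 bases, SMCO1 and APOBEC1 held 3 each, and ZNF723 held 10. The GC content ran from 33.2% (SMCO1) to 56.0% (ZNF723). The summits themselves lay outside these stretches. In the control list they were 416 bp downstream of the SMCO1 start (fold enrichment 3.10), 473 bp downstream of APOBEC1 (2.79) and 474 bp upstream of DEFB119 (4.36). In the TGF-β1 list they were 298 bp downstream of AHCYL1 (4.06), 420 bp upstream of ZNF723 (4.65) and 458 bp downstream of SLC17A2 (3.19). Fold enrichment is the authors' value for each peak, ChIP coverage over local background at the summit.

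Both lists thinned out toward starts. Peaks within 5 kb made up 3.60% (3.11% to 4.17%) of the control list on chromosomes 1 to 22 and 3.91% (3.61% to 4.22%) of the TGF-β1 list, while 7.83% of the length of these chromosomes lay within that distance. Outside dense bins, 1 Mb stretches where the lists together placed 20 or more peaks, the shares were 5.53% (4.78% to 6.39%) and 5.43% (5.03% to 5.87%), and 7.98% of the length lay that near, so the shortfall was smaller there. Around genes with a known strand, the first 250 bp on each side held 0 summits of either list in 10.4 Mb. In the 6.19 Mb of promoter windows, a count of 0 allows up to 3 summits, or 0.485 per Mb. Between 5 and 50 kb from a start there were 1.13 (1.06 to 1.21) control and 4.28 (4.13 to 4.42) TGF-β1 summits per Mb, both above that limit. Genes taken at either end were not bare within 250 bp. There 1 control summit lay beside NLRP13 (235 bp), and 10 TGF-β1 summits lay 133 to 233 bp from a gene end, among them those beside HBB, HBG1, HBG2, OR56B4, TMC5, ZNF80, LOC124900993, HIPK2 and RAB2A. Such an end may or may not be the start. For HBB, HBG1 and HBG2 it was the downstream end, by the direction of transcription given below.

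The density returned over the first kilobases. Within 1 kb of a start of a gene with a known strand, the control list had 9 summits, or 0.243 per Mb (0.111 to 0.461), and the TGF-β1 list 23, or 0.621 per Mb (0.393 to 0.931). Over all protein-coding genes, either end included, the lists had 16 and 59, or 0.309 (0.176 to 0.501) and 1.14 per Mb (0.866 to 1.47), against 1.13 and 4.28 per Mb at 5 to 50 kb. From 1 to 2 kb of genes with a known strand the values were 0.687 (0.436 to 1.03) and 2.66 (2.14 to 3.27). In the TGF-β1 list they went on to 3.56 (2.93 to 4.29) at 3 to 4 kb and 4.49 (4.30 to 4.69) at 20 to 50 kb. In the control list the density did not rise steadily: it was 1.18 (0.835 to 1.62) at 2 to 3 kb, 0.693 (0.429 to 1.06) at 4 to 5 kb and 1.16 (1.07 to 1.27) at 20 to 50 kb.

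**Figure D1:**
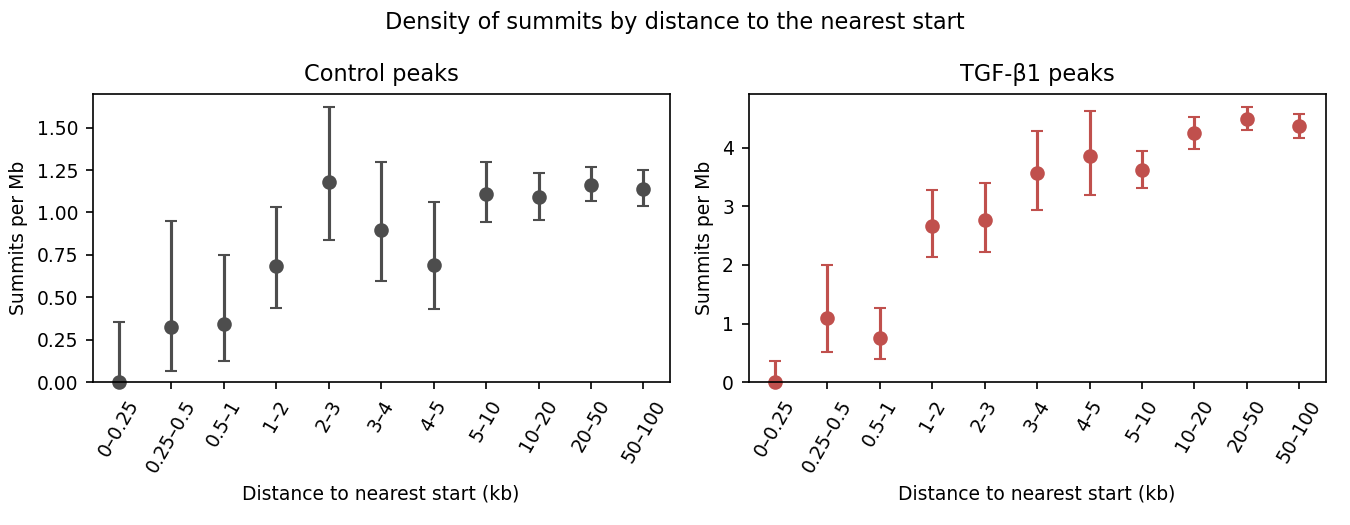
Summits per Mb (vertical axis, from 0) in classes of distance in kb to the nearest start of a gene with a known strand (horizontal axis), for the control list (left) and the TGF-β1 list (right). Points are counts divided by the length of genome in the class and bars are exact Poisson 95% intervals for counting error; both lists stand at 0 in the first 0.25 kb and rise to 1.16 and 4.49 summits per Mb at 20 to 50 kb.

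Counts were low on both sides of the start. Where the nearest gene had a known strand, 66 of 115 control summits lay upstream (57.4%, 48.3% to 66.0%), as did 217 of 421 TGF-β1 summits (51.5%, 46.8% to 56.3%). In the first kilobase the control list had 5 summits upstream and 4 downstream, and the TGF-β1 list 16 and 7. In the 1 kb classes from 1 to 5 kb on either side, the control list had 7 to 20 and the TGF-β1 list 40 to 61. Within 1 kb, 16 of 23 TGF-β1 summits (69.6%) were upstream, on few summits. The median distance to the nearest start was 2787 bp (control) and 2978 bp (TGF-β1), counting all genes.

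**Figure D2:**
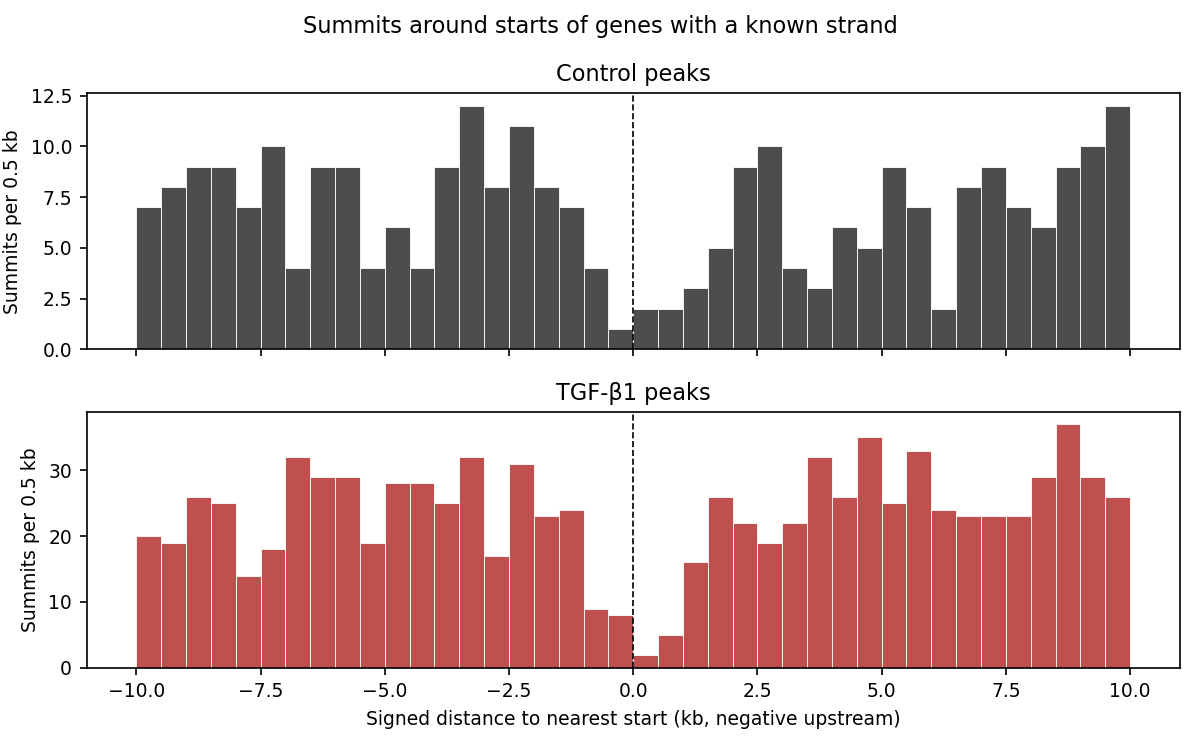
Number of summits in steps of 0.5 kb (vertical axis) by signed distance in kb to the nearest start of a gene with a known strand (horizontal axis, negative upstream), control above and TGF-β1 below. The dashed line marks the start, where both lists have their lowest counts.

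Within the first 2 kb the density of summits was higher beside starts poor in CpG than beside starts rich in CpG, but the counting intervals of both classes overlapped. A gene was called CpG-rich when any of its 300-base windows had at least 50% GC and a ratio of observed to expected CpG over 0.6, which held for 10397 of the 15101 genes (68.8%). Within 1 kb, CpG-rich starts had 12 TGF-β1 summits, 0.468 per Mb (0.242 to 0.817), and CpG-poor starts 11, 0.966 per Mb (0.482 to 1.73). The control values were 3 summits, 0.117 per Mb (0.0241 to 0.342), and 6, 0.527 per Mb (0.193 to 1.15). From 1 to 2 kb the TGF-β1 values were 2.23 (1.66 to 2.93) and 3.59 (2.54 to 4.93), and the control values 0.524 and 1.04. From 5 to 10 kb the TGF-β1 densities were 3.65 (3.28 to 4.06) and 3.53 (2.99 to 4.14), above those within 1 kb in both classes.

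**Figure D3:**
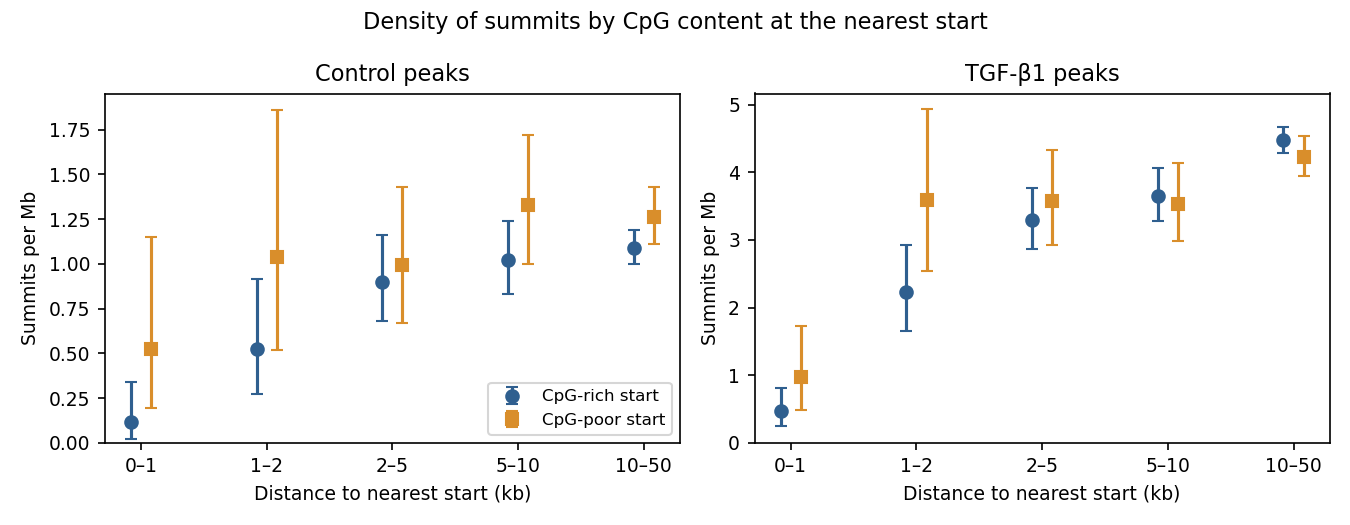
Summits per Mb (vertical axis, from 0) by distance in kb to the nearest start (horizontal axis), for starts of CpG-rich genes (blue circles) and CpG-poor genes (orange squares), control left and TGF-β1 right. Bars are exact Poisson 95% intervals; within 1 kb the CpG-rich class stands at 0.117 and 0.468 summits per Mb and the CpG-poor class at 0.527 and 0.966.

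The CpG content at the starts of genes with a peak within 5 kb was compared with that of all genes. Their median observed to expected CpG ratio was 0.679 (control, 129 genes with a known strand) and 0.671 (TGF-β1, 458 genes), against 0.748 over all 15101. CpG-rich genes made up 62.0% (53.4% to 69.9%) and 65.5% (61.0% to 69.7%) of them, and both intervals hold the 68.8% of all genes. Of the fifth of genes with the lowest ratio, 3.61% (3.0% to 4.33%) were hit by TGF-β1 peaks, and 1.19% (0.862% to 1.65%) by control peaks. Of the fifth with the highest ratio these were 2.52% (2.02% to 3.14%) and 0.629% (0.403% to 0.981%), with intervals that overlap the former ones. The genes were also longer, with median lengths of 41.5 kb (control) and 37.3 kb (TGF-β1) against 24.5 kb over all genes.

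Peaks near starts were described by the values the authors gave each peak. The pileup, the number of ChIP tags covering the summit, ran from 12 to 260 in the control with a median of 20, and from 10 to 80 in the TGF-β1 list with a median of 18. Fold enrichment ran from 2.00 to 6.25 (median 3.54) and from 1.83 to 6.59 (median 3.55), against medians of 3.06 and 3.46 over all peaks of chromosomes 1 to 22. The median −log10 q was 3.68 and 3.39, against 4.41 and 3.78 over all these peaks. Lengths ran from 148 to 333 bp (median 165 bp) and from 136 to 377 bp (median 156 bp). The shortest lengths equal the fragment lengths, which the caller sets as its minimum, so lengths of the 2 lists are not comparable.

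They seldom lay where the background was high or peaks crowded. Over high local background, more than 5 times the genome-wide value, were 8 control members (4.62%) and 6 TGF-β1 members (0.987%), against 35.6% and 17.1% of all peaks. In dense bins lay 1 (0.578%) and 3 (0.493%), against 35.2% and 28.4%. Among peaks over low background and outside dense bins, the median fold near starts was 3.56 in the control against 3.54 farther away, and 3.55 in the TGF-β1 list against 3.65. The median pileups were 19 against 18 and 18 against 17, and the median −log10 q 3.60 against 3.25 and 3.39 against 3.39. A fold of at least 5 was reached by 13 control members (7.51%, 4.44% to 12.4%), against 4.86% of all control peaks. In the TGF-β1 list 37 members (6.09%, 4.45% to 8.28%) reached it, against 6.09% of all. All peaks include those over high background or in dense bins. Of farther peaks outside these, 92.3% in the control had a fold of at most 4.98. In the TGF-β1 list 92.8% had at most 5.01.

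**Figure D4:**
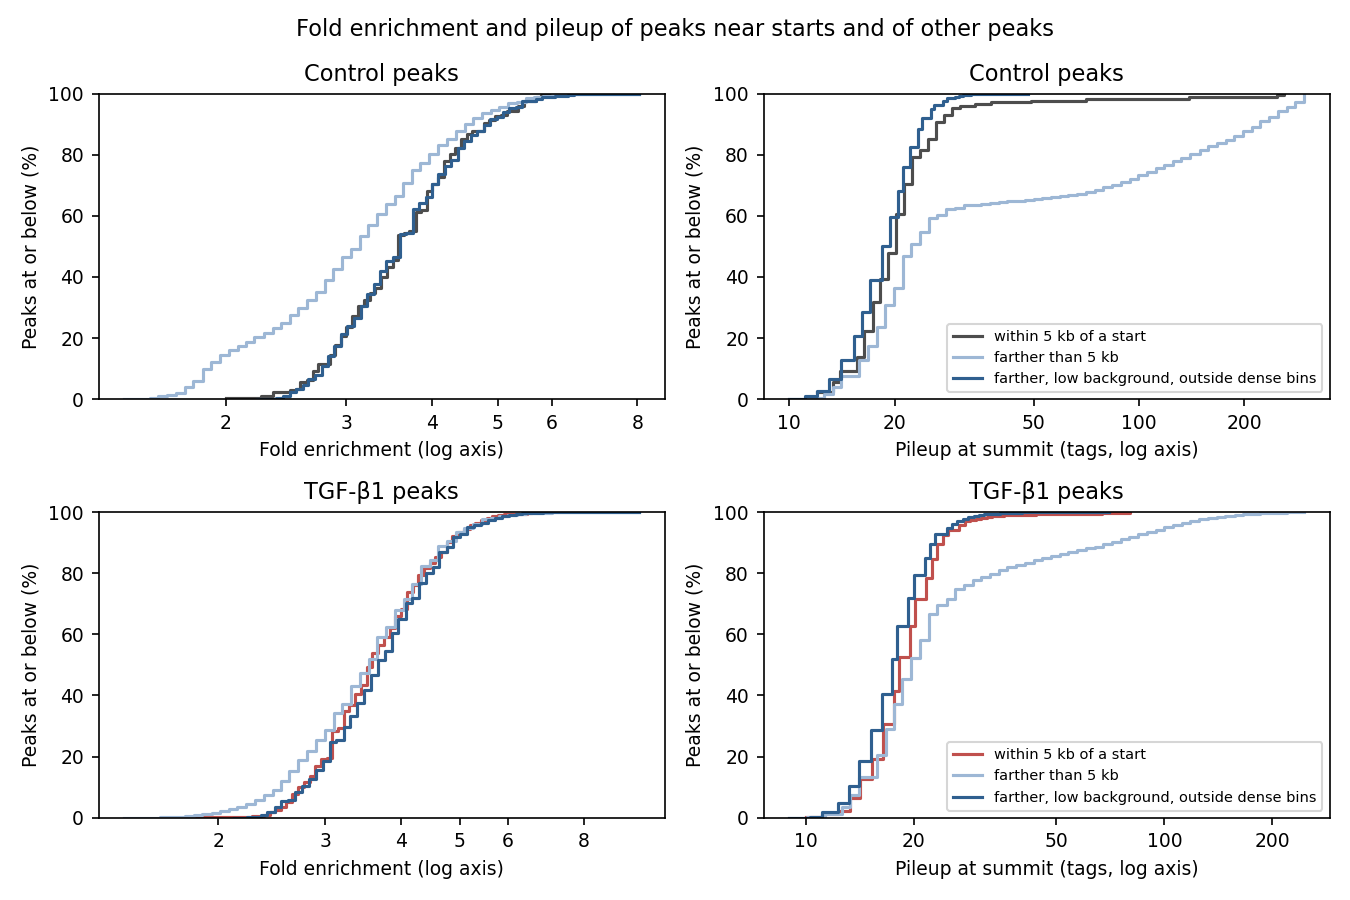
Cumulative percentage of peaks (vertical axes) at or below a fold enrichment (left, log axis) or a pileup in tags (right, log axis), control above and TGF-β1 below. The line for peaks within 5 kb of a start (dark grey or red) runs beside that of farther peaks over low background outside dense bins (dark blue), while all farther peaks (light blue) reach pileups of 296 and 245 tags.

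The TGF-β1 list had 3.51 times as many peaks near starts as the control list (2.96 to 4.19), and 3.24 times as many on chromosomes 1 to 22 in all (3.14 to 3.35). Over low background and outside dense bins the ratios were 3.65 (3.07 to 4.37) near starts and 3.72 (3.57 to 3.88) farther away. The intervals of these last ratios overlap. The ratio near starts fell to 1.28 (1.04 to 1.57) with lists of equal length, taken by fold, and to 1.4 (0.382 to 5.59) at a −log10 q of at least 10. The cut to equal length kept the whole control list and trimmed only the TGF-β1 list, so it could not raise the ratio. The TGF-β1 ChIP library was the deeper one, and its part in the ratio was not tested.

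Hardly any site near a start was called in both lists. By at least 1 bp, 1 control member (0.578%, 0.102% to 3.20%) and 1 TGF-β1 member (0.164%, 0.0290% to 0.926%) overlapped the other list, against 15.4% and 4.79% of all peaks. They were the same pair, beside TSPOAP1, whose product binds the mitochondrial translocator protein. The summits lay 4.32 kb (control, fold 3.14) and 4.18 kb (TGF-β1, fold 2.54) from the gene's nearer end and 144 bp apart. All peaks include many in dense bins or over high background, where few members lay. Overlap among farther peaks outside these was not compared.

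By gene, 189 protein-coding genes had a control peak (0.988% of 19126) and 654 one of the TGF-β1 list (3.42%). Of genes with a known strand these were 0.854% and 3.03%, and of genes taken at either end 1.49% and 4.87%. Both lists hit 16 genes, which is 8.47% of the control genes and 2.45% of the TGF-β1 genes. At 7 of the 16 the summits of both lists lay within 5 kb of each other, and at 9 they were 11.8 to 288 kb apart, at different ends or starts of the gene.

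The genes with neighbouring summits included TSPOAP1, NLRP13, TENM3, OR52E2, TMC5 and APOBEC1. NLRP13, of the NLR family of innate immune proteins (chromosome 19, 55891692 to 55932336), had the highest control fold of those named. Its control summit stood 0.235 kb outside the gene's end (pileup 21, fold 5.40) and its TGF-β1 summit 1.57 kb from it (pileup 17, fold 4.15). TENM3, which encodes a teneurin adhesion protein of neurons, had summits 566 bp (control, fold 2.67) and 2058 bp (TGF-β1, fold 3.80) downstream of a start. OR52E2, an olfactory receptor gene, had them 1274 bp upstream (control, fold 4.10) and 1362 bp downstream (TGF-β1, fold 4.56). APOBEC1 had a control summit 473 bp (fold 2.79) and a TGF-β1 summit 4721 bp (fold 3.77) downstream. TMC5 had a control summit over high local background (pileup 134, fold 2.70) and a TGF-β1 summit 0.143 kb from the gene's end (pileup 23, fold 3.05).

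Among the other 9 were EHHADH, of peroxisomal fatty acid oxidation (folds of 3.22 control and 4.04 TGF-β1), and COQ3, of coenzyme Q synthesis (3.0 and 2.54). SNRPN, an imprinted gene expressed from the paternal copy, had a control summit 850 bp upstream of a start (3.32) and a TGF-β1 summit 4535 bp downstream (4.31). Others were PDE1A, a cyclic nucleotide phosphodiesterase gene (3.74 and 2.44), PIK3R6, which encodes a regulatory subunit of phosphoinositide 3-kinase γ (2.57 and 3.55), PRUNE2 (3.55 and 4.06), DAW1 (4.45 and 3.89) and DPY19L4 (3.79 and 3.06).

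The control members of highest fold were led by a peak 1.55 kb from LAIR2, which encodes a secreted collagen-binding immune receptor (chromosome 19, 54512146 to 54512307). Its pileup was 70, its fold 6.25 and its −log10 q 28.1, and it lay over high local background, at 5.21 times the genome-wide value. The next were beside LYZL2, a lysozyme-like gene (pileup 20, fold 5.73, 4547 bp upstream), ADAM2, a sperm surface protein gene (pileup 17, fold 5.66, 0.773 kb inside an end), FAM167A (5.64) and NLRP13 (5.40). MALRD1 followed with 5.38 and CLNK, an adaptor of immunoreceptor signalling, with 5.37. The olfactory receptor gene OR4A16 had 5.35. ACADL, of fatty acid oxidation, and GADL1 had 5.34 each. Of these genes LAIR2, ADAM2, FAM167A and NLRP13 were taken at either end, so their peaks may not lie near the start. By −log10 q, LAIR2 was followed by 2 peaks beside the uncharacterised LOC124905450 near the end of chromosome 18 (23.7 and 18.5), TMC5 (18.1) and B4GALT6 (15.4). The LOC124905450 peaks had the highest pileups near a start in the control, 237 and 260 tags, over 51.5 and 65.0 times the genome-wide background.

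The TGF-β1 members of highest fold were led by HBB (chromosome 11, 5225464 to 5227071), with a summit 0.356 kb inside one end (pileup 25, fold 6.59) and another 0.158 kb inside the other (pileup 32, fold 5.58). The β-globin genes are transcribed toward lower coordinates, so the first of these was the one nearer the start of HBB. It lay 0.356 kb downstream of that start, within the gene and not in its promoter. By the same reading the summits 0.142 kb inside HBG1 (fold 5.37) and 0.133 kb inside HBG2 (fold 5.32), fetal globin genes, lay at their downstream ends. HBG1 and HBG2 are nearly identical, so which of them these peaks belong to is uncertain. Next came CYP4X1, a cytochrome P450 gene (pileup 21, fold 6.46, 1322 bp upstream), and PTGDR, a prostaglandin D receptor gene (pileup 24, fold 6.33, 2770 bp downstream). HSD17B2, which encodes an enzyme that inactivates estradiol (pileup 20), also had a fold of 6.33. PNLIP, the pancreatic lipase gene, had 6.22, and a second peak of 4.74 in the same 5 kb. EDAR, a receptor of skin appendage development, had 5.85, MED30, a Mediator subunit gene, 5.73, UNC5A, a netrin receptor gene, 5.67 and ZNF680 5.59. HSD17B2, EDAR and MED30 were taken at either end as well, so their peaks may not lie near the start.

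By −log10 q the TGF-β1 order was GSTA4, a glutathione transferase gene (16.4, summit 490 bp upstream, pileup 55), ZNF680 (15.5), ATP5MF, an ATP synthase subunit gene that shares its peak with a read-through gene (11.7), HBB (11.6) and ZNF670 (11.2). The ATP5MF and ZNF670 peaks were over high local background. The highest pileup of a TGF-β1 member, 80 tags, was in DUX4, the homeobox gene of a repeat array near the end of chromosome 4, with a fold of only 1.83. The longest members were beside TMC1 (333 bp), KRT6B (305 bp) and DEFB119 (293 bp) in the control, and TPST1 (377 bp), C16orf46 (367 bp) and EPB41L3 (349 bp) in the TGF-β1 list. At the limit of 5 kb the last members were TIGIT (4.91 kb, fold 3.89) and DCUN1D5 (4.95 kb, 3.11) in the control and OR2L13 (4.99 kb, 4.22) and SCARA5 (5.00 kb, 3.21) in the TGF-β1 list. Just outside lay BCO2 (5.01 kb, 2.92), PDE6D (5.07 kb, 2.72), GJA4 (5.00 kb, 3.91) and LOC124904077 (5.00 kb, 4.25).

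In the TGF-β1 list the genes of the TGF-β pathway had 1 member with a peak near the start. Of 45 TGF-β response genes on chromosomes 1 to 22, 0 had a TGF-β1 peak, which allows a share of up to 6.67%, and 1 a control peak. That was SNAI2, which encodes a transcriptional repressor of epithelial genes (4.0 kb from an end, pileup 13, fold 4.68). Of 42 ligands, receptors, SMADs and antagonists, the TGF-β1 list had 1 and the control list 0. The one was ACVR1C, a type I activin receptor gene, with a summit 1004 bp upstream (pileup 14, fold 2.54, −log10 q 1.30). The TGF-β1 shares, 0% (0% to 7.87%) and 2.38% (0.422% to 12.3%), have intervals that hold the 3.42% of all genes. The control share of the response genes, 2.22% (0.393% to 11.6%), has an interval that holds 0.988%.

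The blood cell genes were read against the share of all genes, 3.42% for TGF-β1 peaks and 0.988% for control peaks. The globin list had 4 of 10 members with a TGF-β1 peak (40.0%, 16.8% to 68.7%) and 0 with a control peak. The 4 are neighbours in 1 locus, HBB, HBG1, HBG2 and HBE1, the embryonic gene (1.38 kb from an end, fold 2.61). All were taken at either end. The other 45 erythroid, heme and iron genes had 0 in either list, which allows up to 6.67%. Of 34 stem and progenitor genes, 3 had a TGF-β1 peak (8.82%, 3.05% to 23%). They included ERG, an ETS factor of stem cells and endothelium (2140 bp downstream, pileup 13, fold 4.22), and GFI1B, an erythroid and megakaryocyte repressor gene (2135 bp downstream, pileup 26, fold 2.49). Of 39 megakaryocyte and myeloid genes, 2 had one. VWF, of von Willebrand factor, had it 4.29 kb from an end, which may not be the start (fold 4.05). CPA3, a mast cell protease gene, had it 4699 bp downstream (fold 3.55). Of 26 endothelial and stromal genes, ERG and the receptor gene TIE1 (4369 bp upstream, fold 3.81) had one. Lymphoid genes had 0 of 26 in either list. Except for the globin genes, the TGF-β1 intervals of these groups hold 3.42%. The control list had 0 in each of these groups.

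Lists of genes that nearly every cell uses had TGF-β1 shares whose intervals hold 3.42%. Of 27 housekeeping genes the TGF-β1 list had 1, YWHAZ, a regulator that binds phosphorylated proteins (3.70%, 0.657% to 18.3%, 1.75 kb from an end, fold 3.04), and the control list 0. Of 28 chromatin regulator genes 2 had a TGF-β1 peak (7.14%, 1.98% to 22.6%). KDM1A, the histone demethylase gene also known as LSD1, had a summit 4166 bp upstream (pileup 24, fold 3.63) and another 4546 bp downstream (pileup 15, fold 3.47). ASXL1, a Polycomb-associated gene, had one 1889 bp upstream (pileup 23, fold 4.87). The 37 cell cycle genes, 27 immediate early genes and 23 genes of the MYC network had 0 in either list, which allows 8.11%, 11.1% and 13.0%. Over all 13 lists, 394 genes, 14 (3.55%) were hit by TGF-β1 peaks and 1 (0.254%) by a control peak, against 3.42% and 0.988% of all genes.

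Of 20 families drawn by gene name, the zinc finger genes named ZNF held the most genes with a TGF-β1 peak, 31 of 498 (6.22%, 4.42% to 8.70%). In the control list they had 4 (0.803%, 0.313% to 2.05%). Many encode KRAB zinc finger proteins, repressors whose genes often lie in clusters, and 246 of the 498 are on chromosome 19. On that chromosome 21 of 246 ZNF genes had a TGF-β1 peak (8.54%, 5.65% to 12.7%), whereas 18 of the other 1205 genes had one (1.49%, 0.947% to 2.35%). Elsewhere 10 of 252 ZNF genes had one (3.97%, 2.17% to 7.15%). In the control list the values were 2 of 246, 7 of 1205 and 2 of 252. Neighbouring ZNF genes resemble one another in sequence, and the sources used here do not say whether reads were filtered on mapping quality. The part of this in the count was not tested.

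The intervals of the other families of the TGF-β1 list held the share of all genes. In the control list those of the protocadherin genes (1.63% to 13.1%) and the defensin genes, 2 of 45 (4.44%, 1.23% to 14.8%), lay above 0.988%, on 3 and 2 genes. The 3 protocadherin genes, PCDHA5, PCDHA6 and PCDHAC1, belong to the same gene cluster, and the interval counts them as separate. Only 18 of the 45 defensin genes had a known strand. The defensin interval holds the 1.49% of genes taken at either end, and the peak beside DEFB119 lay in a dense bin. Olfactory receptor genes had 15 of 391 (3.84%) in the TGF-β1 and 6 of 391 (1.53%) in the control list, and solute carrier genes 16 of 384 (4.17%) and 6 of 384 (1.56%). Protocadherin genes had 3 of 63 (4.76%) in each, and keratin and keratin-associated genes 5 of 149 (3.36%) and 2 of 149 (1.34%). Ribosomal protein genes had 2 of 80 (2.50%) and 1 of 80 (1.25%), histone genes 1 of 85 (1.18%) in each, and proteasome and NADH dehydrogenase subunit genes 0 of 49 and 0 of 44 in both.

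**Figure D5:**
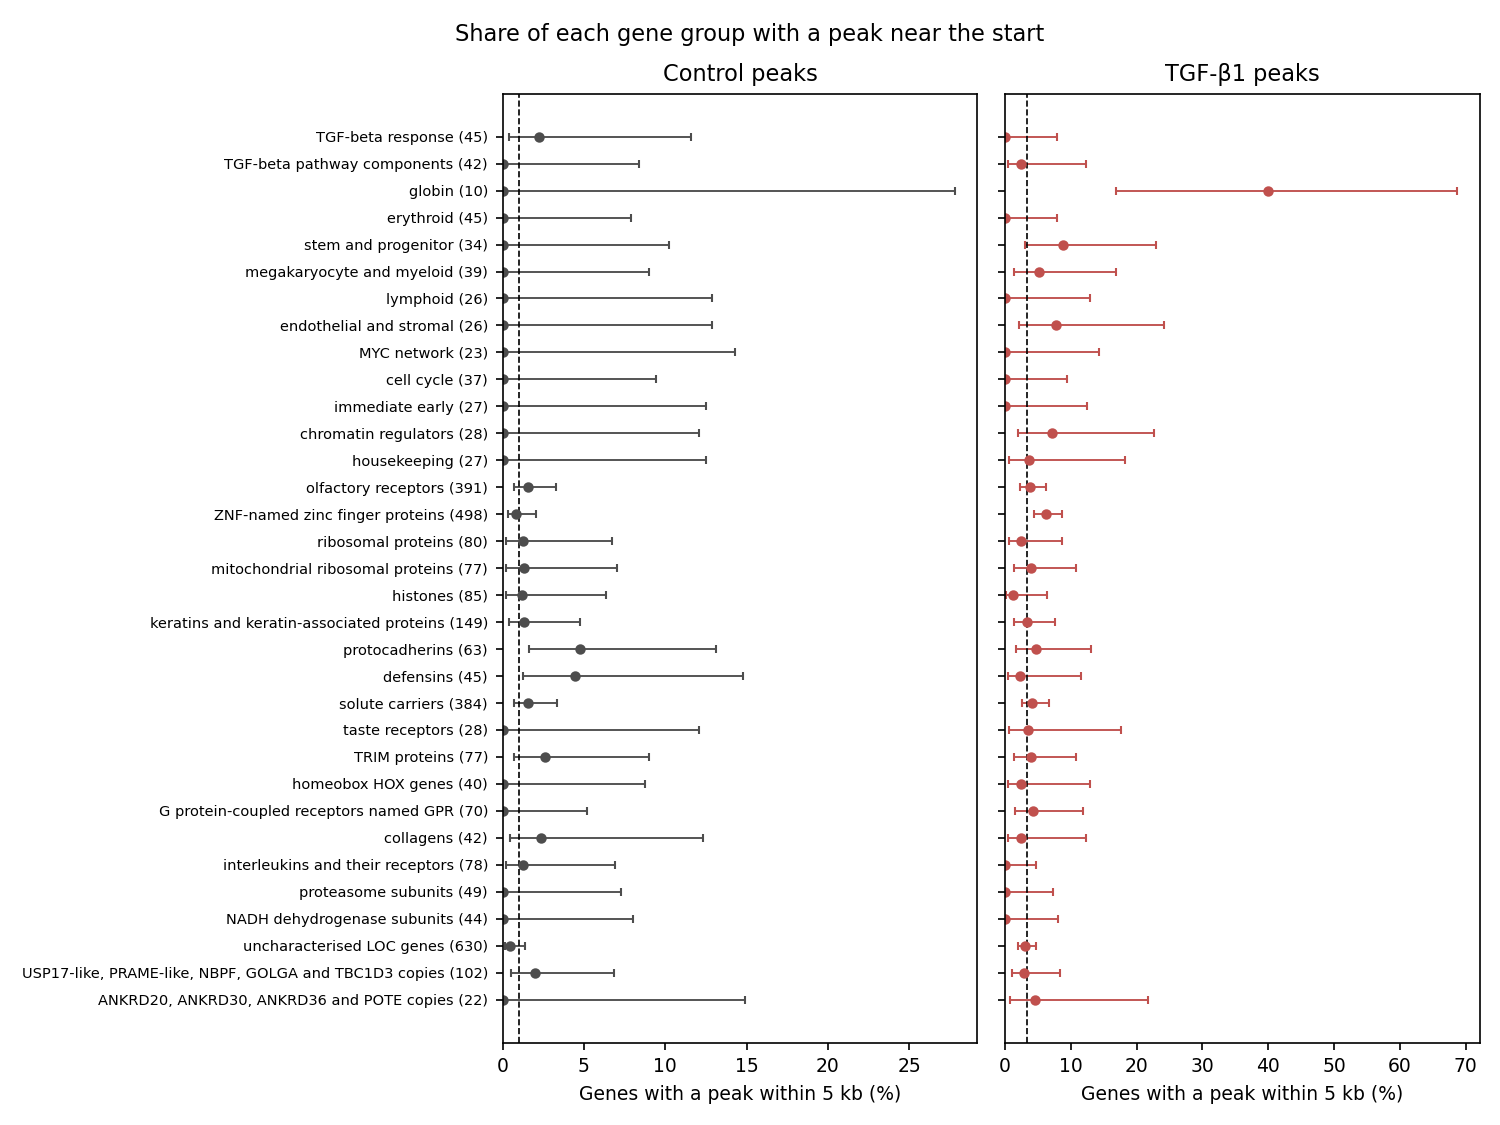
Percentage of each gene group with a peak within 5 kb of the start (horizontal axes, different scales), for the control list (left) and the TGF-β1 list (right), with the number of genes in brackets. Bars are Wilson 95% intervals and the dashed lines mark 0.988% and 3.42% of all protein-coding genes; the globin genes (40.0%, 1 locus) and the ZNF genes (6.22%) of the TGF-β1 list have intervals above the line.

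Few genes had more than 1 peak within 5 kb of a start, or of either end where the strand was not at hand. The control list had 3 with 2 peaks, among them LOC124905450 and BPIFC, whose peaks stood at different ends of the gene. The TGF-β1 list had 19 with 2 peaks, among them HBB, KDM1A, PNLIP, ABCA12, ACTR3B, AGR3, BMS1 and C16orf46. BMS1, a ribosome assembly gene, had summits 4740 bp upstream (fold 4.66) and 3736 bp downstream (4.52). ABCA12, a lipid transporter gene of the skin, had them at different starts, 985 bp upstream of one (3.25) and 4779 bp downstream of another (3.92). Conversely 18 control and 63 TGF-β1 peaks had 2 or 3 genes within 5 kb. In the control these included INTS9 with HMBOX1 (4.36), GGA3 with MRPS7 (3.91), TIMM10B with ARFIP2 (3.89) and NKTR with SEC22C (3.89). In the TGF-β1 list they included PEDS1 with UBE2V1 (5.19), CDC27 with MYL4 (5.07) and the olfactory receptor genes OR13C5 and OR13C2 (5.07). Summits lay inside the nearest gene in 83 of 173 control and 316 of 608 TGF-β1 cases. The share of the length near starts that lies inside genes was not counted, so these counts have no value to compare with.

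By chromosome, the share of peaks near starts was highest on chromosome 19, with 8 of 51 control peaks (15.7%) and 36 of 205 TGF-β1 peaks (17.6%), where 25.9% of the length lies within 5 kb of a start. It was lowest on chromosome 13, with 1 of 346 (0.289%) and 14 of 1128 (1.24%), against 3.53% of its length. This share depends on how many peaks a chromosome has in all. Counted by gene, the TGF-β1 order was reversed. TGF-β1 peaks hit 4.44% of the genes of chromosome 13 and 2.69% of those of chromosome 19. Control peaks hit 0.296% and 0.620%.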

How the data were processed

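ChIP-seq was done by the authors on 1 ChIP and 1 input library per condition. Reads were aligned with Bowtie2 to hg38 and peaks called with MACS2, per the submitters' processing notes, which name version 2.1.0, whereas the file headers name 2.2.7.1. Peaks were called per condition at a q-value limit of 0.05 with 1 tag kept per position, per the file headers. The deposited pileup is a signal (coverage at the summit, the larger library scaled down). The deposited fold enrichment is a ratio to local background, and the deposited −log10 p and −log10 q values are the caller's.

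Computed here (Python 3.11.15, pandas 2.3.3, scipy 1.17.1): the distance from each summit to RefSeq starts (GRCh38.p14), which are the outer 5′ gene end and the promoter table's starts, or either end without strand. The length of genome per distance class was counted every 50 bp, with the last gene or peak coordinate standing for the chromosome's length. Local background came from pileup and fold. Shares have Wilson intervals, counts exact Poisson intervals and ratios exact intervals. The assignment was tested on simulated summits.

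Members, gene lists and families were chosen with earlier results of these data known. Named genes are those hit in both lists, of highest fold, −log10 q, pileup or length, closest to or at the limit, with several peaks or genes, or in a gene list. The CpG classes, the closest summits and the split of ZNF genes by chromosome were added after values were seen. Motifs planned for promoter windows with a summit were not run, since no window held one. Alternatives are given in the closing section. Peaks off chromosomes 1 to 22 were left out. Some genes that the rule names are not reported here.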

Additional observations from a re-analysis of the deposited data

How the results depend on the processing

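Each comparison rests on 1 library per group, so no replicate could be left out. No paired analysis was possible because each group had 1 library. Values within 1 kb rest on few summits (9 and 23 for genes with a known strand), and the part of depth was not tested. Of 189 values recomputed under alternatives, 108 stayed within 1.5 times (counts) or within the counting interval (others), and 81 moved. The cause was not tested except where the alternative changes the number of peaks or genes. No value moved when distance was taken from the nearest base of a peak or when summits closer than 500 bp were counted once. Values are given control first.

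With a limit of 1 kb there were 16 and 59 peaks (0.333% and 0.379%), 17 and 59 genes, 0 of them in both lists, median folds of 3.21 and 3.63, and 69.6% of TGF-β1 summits upstream. Of the length, 1.80% lay within 1 kb. With 2 kb there were 49 and 187 peaks (1.02% and 1.20%), 51 and 193 genes, 2 in both, and a median TGF-β1 fold of 3.63. With 10 kb there were 365 and 1267 peaks (7.61% and 8.14%), 416 and 1389 genes, 53 in both, and a median control fold of 3.41.

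With a −log10 q of at least 5 there were 40 and 113 peaks (1.92% and 2.33%), a ratio of 2.83, 42 and 123 genes, 0 in both, median folds of 4.36 and 4.75, a median TGF-β1 length of 163 bp, 76.0% of control summits upstream, and an overlap of 0% in both lists. With at least 10 there were 5 and 7 peaks (0.456% and 0.509%), a ratio of 1.4 (0.382 to 5.59), 4 and 7 genes, 0 in both, median folds of 2.70 and 5.58, a median TGF-β1 length of 183 bp and 75% of TGF-β1 summits upstream. With lists of equal length by fold the TGF-β1 list had 221 peaks near starts (4.29%), a ratio of 1.28, 237 genes, 7 in both, a median fold of 4.38 and 57.0% upstream.

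Over low local background only, the shares were 5.34% and 4.67%, and without dense bins 5.53% and 5.43%, where 7.98% of the length lay within 5 kb. With either gene end the shares were 4.86% and 5.53%, with 25 genes in both lists. With the starts of all annotated genes there were 586 and 1906 peaks (12.2% and 12.3%), 675 and 2244 genes, 60 in both, and a median control length of 172 bp. For either gene end and for all annotated genes the length within 5 kb was not counted. With only genes of known strand, an alternative chosen after seeing the data, the shares were 2.48% and 2.76%, with 6 genes in both and an overlap of 0%. Of the length, 5.71% lay within 5 kb of the starts of these genes. With an overlap of at least 50% of the shorter peak, 0% overlapped in either list.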
